A study of Mus musculus with 9 samples.

Results

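The genes described here are 8 regulators of blood stem and progenitor cells, Mecom, Runx1, Myc, Kit, Gata2, Gata3, Bcl11a and Mitf, read at their promoter windows in mouse cells that carried the transcriptional repressor Snai1. Each gene had 1 window, so the group is 8 of 10271 windows listed in the authors' deposited table. A window belonged to a gene when the start position it was built around lay within 1000 bp of the gene's 5' end on the same strand, and otherwise when it lay inside the gene. The genes were known regulators chosen by their changes between Snai1 and EV in this table. The changes, the authors' FDR and any test repeated on the changes are therefore given as a description and support no claim about the group. Chromatin accessibility was measured by ATAC-seq, which reads where a transposase, Tn5, could insert adapters into open chromatin. The cells were HPC7, a mouse hematopoietic progenitor line kept in stem cell factor. The group called Snai1 is HPC7 with a MIG retroviral vector for wildtype Snai1, FLAG-tagged per the series' design text (3 libraries), and the group called EV is HPC7 with the empty MIG vector (3 libraries). Another 3 libraries, of a mutant called mut5Snai1, are not in this comparison and were not analysed here. All groups share the parental line, the vector backbone and the culture medium, and whether the 3 libraries of each group go back to independent transductions is not stated, so the authors' p-values may measure technical spread.

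Blood stem and progenitor cells are held in their state by a small set of DNA-binding factors and by growth factor receptors. Gata2 and Runx1 are needed to form and keep these cells, and both act together with partners such as Tal1, Lyl1, Lmo2, Fli1 and Erg. The Mecom locus gives a long and a short transcription factor that support stem cell self-renewal, Myc drives growth and division, and Kit is the receptor for stem cell factor, the cytokine in this medium. Gata3 is best known for T cell fate, Bcl11a for B cell development and for silencing fetal globin genes, and Mitf for mast cells and pigment cells. Snai1 is a zinc finger repressor that binds an E-box and recruits histone-modifying enzymes through its SNAG domain.

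Several of these genes have more than 1 promoter, and the windows caught only some of them. Over the whole series, 10271 windows covered 10201 genes, so most genes had only 1. A start without a window has no value and is not read as closed. Of 13 RefSeq starts listed for 7 of the genes, 7 lay inside a window and 6 did not (Myc had no entry). The Mecom window sat on the start of the short form, 496555 bp inside the gene, and the start at the gene's 5' boundary had no window. The Runx1 window sat on the distal promoter at the 5' boundary, and the listed start 128.7 kb further down, the proximal promoter, had none. The Gata2 window sat on the downstream start, 4773 bp inside the gene, and the upstream start had none. The Gata3 window lay 9353 bp inside the annotated gene, on its only start in the promoter table. The Mitf window sat on the most upstream of 3 listed starts. The Kit window held both listed starts, 4 bp apart. The Myc window was on the gene's 5' boundary. The Bcl11a window lay 1492 bp inside the gene and was not on a listed start, the nearest of which lay 2639 bp further down.

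The sequences of 4 of these promoters are shown because they carry the windows that were lower in Snai1 and had a listed start (Mecom, Runx1), and the pair with the largest higher values (Gata3, Mitf). They run from 250 bases before to 50 bases after the start, 5' to 3' on the gene's strand, from RefSeq (GRCm38.p6, the same coordinates as mm10). The regions are chr3:30013155-30013454 for Mecom and chr16:92826025-92826324 for Runx1, both on the minus strand, chr2:9878551-9878850 for Gata3 on the minus strand, and chr6:97806808-97807107 for Mitf on the plus strand. Capitals mark every match to 5 short motifs: the Snai1 E-box CAGGTG, any E-box CANNTG (which includes the Snai1 form), the GATA core GATAA, the RUNX core TGTGGT and an ETS core CCGGAA, each on both strands.
Mecom: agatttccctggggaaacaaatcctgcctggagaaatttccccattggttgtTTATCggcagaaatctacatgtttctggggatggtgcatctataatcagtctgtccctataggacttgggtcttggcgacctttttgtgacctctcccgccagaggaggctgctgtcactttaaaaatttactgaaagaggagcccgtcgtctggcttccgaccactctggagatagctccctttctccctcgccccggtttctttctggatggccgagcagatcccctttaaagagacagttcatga
Runx1: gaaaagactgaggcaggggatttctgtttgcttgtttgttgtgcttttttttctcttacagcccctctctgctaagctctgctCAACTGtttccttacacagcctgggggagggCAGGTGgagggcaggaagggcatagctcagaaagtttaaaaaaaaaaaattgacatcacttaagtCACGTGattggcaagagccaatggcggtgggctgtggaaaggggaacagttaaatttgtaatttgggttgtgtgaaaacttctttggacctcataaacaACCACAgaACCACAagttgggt
Gata3: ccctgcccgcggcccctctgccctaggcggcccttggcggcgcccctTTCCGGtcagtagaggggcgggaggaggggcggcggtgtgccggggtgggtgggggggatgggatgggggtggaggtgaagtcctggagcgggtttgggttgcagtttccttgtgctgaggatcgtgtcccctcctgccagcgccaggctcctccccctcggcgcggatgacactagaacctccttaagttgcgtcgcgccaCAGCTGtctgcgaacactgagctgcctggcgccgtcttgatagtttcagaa
Mitf: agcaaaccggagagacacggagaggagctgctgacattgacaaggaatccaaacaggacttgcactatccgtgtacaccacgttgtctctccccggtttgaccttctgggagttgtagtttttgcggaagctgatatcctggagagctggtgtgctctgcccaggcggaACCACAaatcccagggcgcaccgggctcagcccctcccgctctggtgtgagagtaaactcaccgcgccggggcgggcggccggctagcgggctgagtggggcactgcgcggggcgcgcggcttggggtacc

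Among the 6 member promoters with sequence, the Snai1 E-box was found at Runx1, at position -136 counted from +1 at the start, and was absent from these 300 bases at Mecom, Kit, Gata2, Gata3 and Mitf. It is a common word: 20.2% of 32817 RefSeq promoters hold it, and 15.9% of the 6641 promoters whose start carries a window. Of windows that passed FDR 0.05, it was in 14.5% of the 1284 higher and 18.9% of the 704 lower in Snai1, against 15.9% of the 4653 that did not pass. Runx1 also held 2 further E-box matches (61.2% of promoters with a window hold at least 1) and 2 matches to the RUNX core, at positions 29 and 37. Mitf held 1 RUNX core at -81 (12.6% of promoters with a window hold one), Mecom 1 GATA core at -198 (14.8%) and Gata3 1 ETS core at -203 (32.2%). Kit, Gata2 and Gata3 each held 1 E-box outside the Snai1 form. A match is a run of letters and was not tested for binding.

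Base composition differed among these promoters. Runx1 (45.0% G or C, 2 CpG sites) and Mecom (49.7%, 9 CpG sites) lay below the median of 61.3% over promoters with a window. Mitf (62.7%), Gata3 (67.3%), Kit (69.0%) and Gata2 (73.7%) lay above it, with 22, 22, 20 and 29 CpG sites. Only 75% of the members had a sequence, under the 80% set for a summary, so none is given over the group.

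In Snai1 and in EV alike, 7 of the 8 promoters lay above at least 22.6% of windows of their width, and the Mecom promoter was among the least accessible. Levels are the authors' log2 concentration, DiffBind's normalized read count of a window. There is 1 value per group and no value per library, so no SD can be given for a level. Windows on the plus strand were 2001 bp wide and those on the minus strand 1101 bp, so levels are ranked within a width only. Among the wide windows, Myc had a level of 11.66 in Snai1 and 11.29 in EV, above 77.1% and 64.6% of windows of that width. Kit had 11.49 in Snai1 and 11.57 in EV, above 69.5% and 76.1%. Kit was the more open of the pair in EV and Myc in Snai1. Mitf had a level of 11.29 in Snai1 and 10.91 in EV, above 61.0% and 47.3%. Gata2 had 10.47 in Snai1 and 10.22 in EV, above 27.8% and 23.4%. Bcl11a had 10.27 in Snai1 and 10.79 in EV, above 22.6% and 41.8%, which put it below Gata2 in Snai1 and above it in EV. Among the narrow windows, Gata3 had a level of 11.36 in Snai1 and 10.97 in EV, above 78.2% and 66.6% of them. Runx1 had 10.15 in Snai1 and 10.76 in EV, above 33.5% and 58.0%. Mecom had 6.81 in Snai1 and 8.32 in EV, above 3.15% and 7.91%, far below the other members in both groups. Without a spread for the levels, the order of neighbouring members was not tested.

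**Figure D1:**
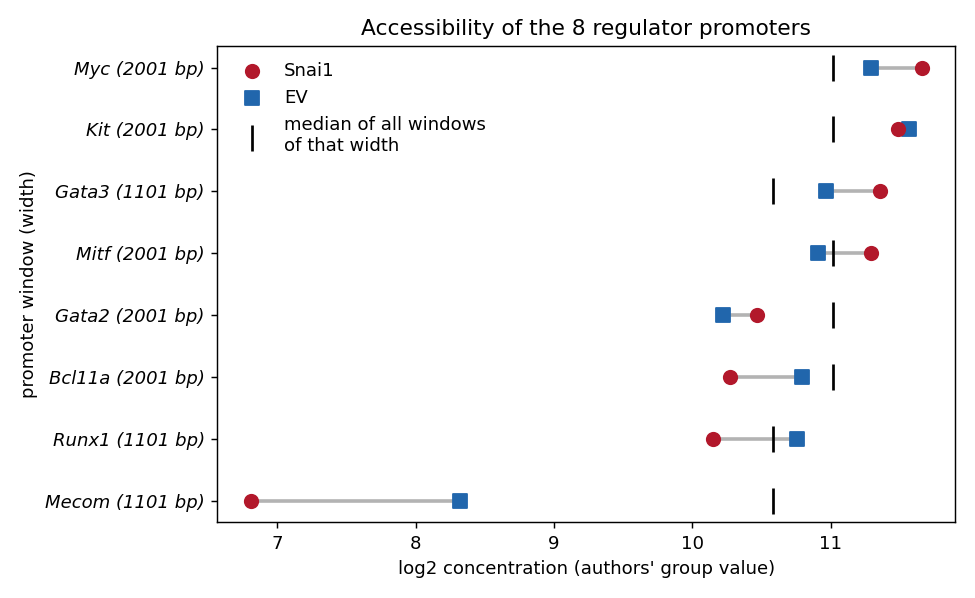
Log2 concentration (x axis, the authors' group value) of the 8 promoter windows (y axis, with the window's width) in Snai1 (red circles) and EV (blue squares); each black tick is the median of all windows of that width over both groups. The Mecom window lies at 6.81 in Snai1 and 8.32 in EV, apart from the others, which lie between 10.15 and 11.66.

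Snai1 was set against EV to ask how the vector for the repressor changed the accessibility of these promoters. At the authors' deposited FDR, with a threshold of 0.05, 4 of the 8 windows were higher in Snai1 (Myc, Mitf, Gata3, Gata2), 3 were lower (Mecom, Runx1, Bcl11a) and Kit did not pass. Of all windows, 29.9% passed, 19.6% higher and 10.3% lower; since the members were picked with these values known, nothing is read from their share. At an FDR of 0.01, 3 members were higher and 3 lower (all windows 19.0%, with 11.2% higher and 7.74% lower). Less the median of all windows and tested again, 3 were higher and 3 lower (21.0%, with 7.21% higher and 13.8% lower). With windows under a log2 concentration of 9 left out, 4 were higher and 2 lower (29.5%, with 20.5% higher and 8.98% lower). The error of a change is given as an implied SE (the SE that, with this change and a normal test, gives the authors' p-value), and the intervals are 95% intervals from it. In bulk chromatin, fewer cells with an open promoter and less opening in each cell cannot be told apart.

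Mecom had the largest change of the 8. Its level was 6.81 in Snai1 and 8.32 in EV, a change of -1.51 (implied SE 0.17, interval -1.84 to -1.18, authors' FDR 1.06e-17). This left 35.1% of the EV value on a linear scale. Only 109 of all windows had a change of greater size. Mecom was not ranked among windows of like level, and its implied SE was above the median of all windows, 0.083. This window is the start of the short Mecom transcript and says nothing of the long form's promoter.

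Runx1 and Bcl11a were lower by about the same amount. The distal Runx1 promoter had a level of 10.15 in Snai1 and 10.76 in EV, a change of -0.61 (implied SE 0.11, interval -0.83 to -0.39, authors' FDR 1.66e-06). On a linear scale this was 65.5% of the EV value. The Bcl11a window had a level of 10.27 in Snai1 and 10.79 in EV, a change of -0.52 (implied SE 0.09, interval -0.69 to -0.35, authors' FDR 2.53e-08). That was 69.7% of the EV value. Their intervals overlap each other and not that of Mecom. In Snai1 the Runx1 window lay below the median of its width (10.61) and in EV above it (10.55).

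Myc, Mitf and Gata3 were higher in Snai1 by nearly equal steps. Myc had a level of 11.66 in Snai1 and 11.29 in EV, a change of 0.37 (implied SE 0.07, interval 0.24 to 0.51, authors' FDR 1.40e-06). Mitf had a level of 11.29 in Snai1 and 10.91 in EV, a change of 0.38 (implied SE 0.06, interval 0.25 to 0.51, authors' FDR 9.03e-08). Gata3 had a level of 11.36 in Snai1 and 10.97 in EV, a change of 0.39 (implied SE 0.07, interval 0.25 to 0.53, authors' FDR 4.76e-07). These 3 windows had between 129% and 131% of the EV value on a linear scale, and 3.97% or fewer of all windows had a higher change. The median change of all windows was itself above 0, at 0.08.

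Gata2 and Kit changed least. Gata2 had a level of 10.47 in Snai1 and 10.22 in EV, a change of 0.25 (implied SE 0.09, interval 0.08 to 0.43, authors' FDR 0.0219), and 11.4% of windows had a higher one. Set against the median of all windows and tested again, Gata2 did not pass (0.17, adjusted p 0.175). Kit had a level of 11.49 in Snai1 and 11.57 in EV, a value of -0.08 (implied SE 0.08, interval -0.23 to 0.07, authors' FDR 0.349). As its change was under 0.1, the SE for Kit is the median over windows of like accessibility and not its own. With that SE, the interval did not reach the falls seen at Runx1 or Bcl11a.

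**Figure D2:**
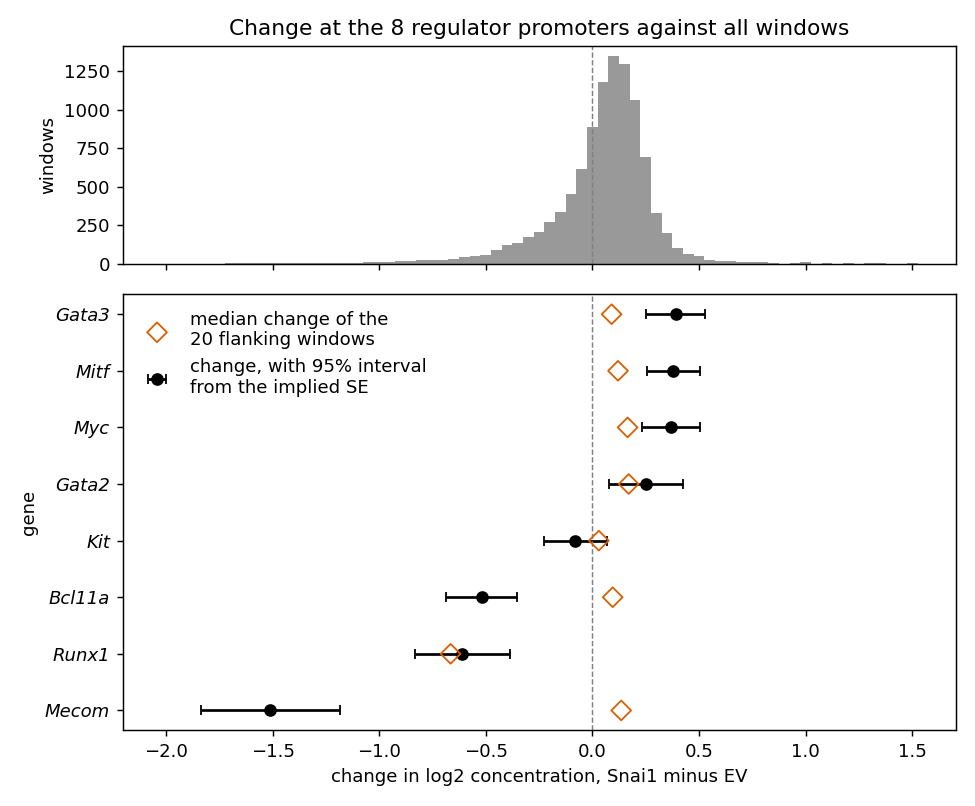
Top, the number of windows at each change in log2 concentration, Snai1 minus EV, in bins of 0.05 (78 windows beyond -2 or 1.5 are not drawn); bottom, the change at each of the 8 windows with its 95% interval (black) and the median change of its 20 flanking windows (open diamonds). For Runx1 the diamond, at -0.67, lies inside the interval; for Mecom and Bcl11a, at 0.14 and 0.10, it lies far above it.

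Neighbouring promoters set the Runx1 value apart from the others. For each window the 10 nearest windows on either side of the chromosome, 20 in all, served as its surroundings. All 20 windows around Runx1, over 4.06 Mb of chromosome 16, were lower in Snai1 at FDR 0.05, with changes from -1.62 to -0.32 and a median of -0.67. Runx1, at -0.61, lay in the middle of them, with 11 windows below it and 9 above. Its nearest neighbours were Rcan1 (-0.57), which encodes a calcineurin regulator, and Setd4 (-1.0), a methyltransferase gene; the lowest was Cbr3 (-1.62), a carbonyl reductase gene. Less its surroundings, the Runx1 change was 0.06 (adjusted p 0.833). On that scale 3 members were higher and 2 lower, where 13.8% of all windows passed, 5.43% higher and 8.36% lower. The chromosome as a whole had a median change of -0.35, with 82.4% of its 335 windows called.

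Mecom and Bcl11a showed the opposite pattern, being lower than all of their flanking windows. These windows spanned 12.7 Mb around Mecom and 7.04 Mb around Bcl11a, so the contrast is not a close one. Of the 20 windows around Mecom, 0 were called lower and 7 higher, and all 20 had a higher change than Mecom; the nearest were Rpl22l1 (0.26), a ribosomal protein-like gene, and Mynn (0.16), a zinc finger gene. Of the 20 around Bcl11a, 0 were called lower and 3 higher, and all 20 again lay above it, the nearest being Papolg (0.16), a poly(A) polymerase gene, and Fancl (0.20), of the Fanconi anemia DNA repair pathway. Less its surroundings, the change was -1.65 at Mecom and -0.62 at Bcl11a, and both passed the test again. With members chosen by these changes, that is a description and not further support.

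Myc, Mitf and Gata3 each had the highest change among their surroundings. All 20 windows around each lay below it, and the medians were 0.17, 0.12 and 0.09. The windows spanned 14.2, 16.1 and 8.02 Mb. The window nearest Myc, 52.6 kb away, was Pvt1, a long non-coding RNA gene of the same domain, with a value of -0.03. Lratd2, on the other side, had -0.20. Mitf had Arl6ip5 (0.32), a membrane traffic gene, on one side and Foxp1 (0.04), a transcription factor gene, on the other. Gata3 had Usp6nl (0.12) and Taf3 (-0.02), which encodes a subunit of the general factor TFIID. Less the surroundings, the change was 0.21 at Myc (adjusted p 0.0256), 0.26 at Mitf (9.81e-04) and 0.30 at Gata3 (3.45e-04). These p-values too describe members chosen by their changes.

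Gata2 did not stand out from its surroundings, where the nearest windows were Rpn1 (0.16), of the oligosaccharyl transferase, and Eefsec (0.19), a selenocysteine elongation factor gene. The median was 0.17, 6 of the 20 lay above Gata2, and less the surroundings its value was 0.08 (adjusted p 0.643). The highest of the 20 was the linker histone gene H1f10, 217.2 kb away, with 9.14 in Snai1 and 7.42 in EV (change 1.72, authors' FDR 1.72e-34); it was singled out after its value was seen. Around Kit, 2 windows were called higher and 1 lower, with a median of 0.03. The nearest named one, Chic2, had a value of -0.19, and the nearest on the other side had no gene.

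**Figure D3:**
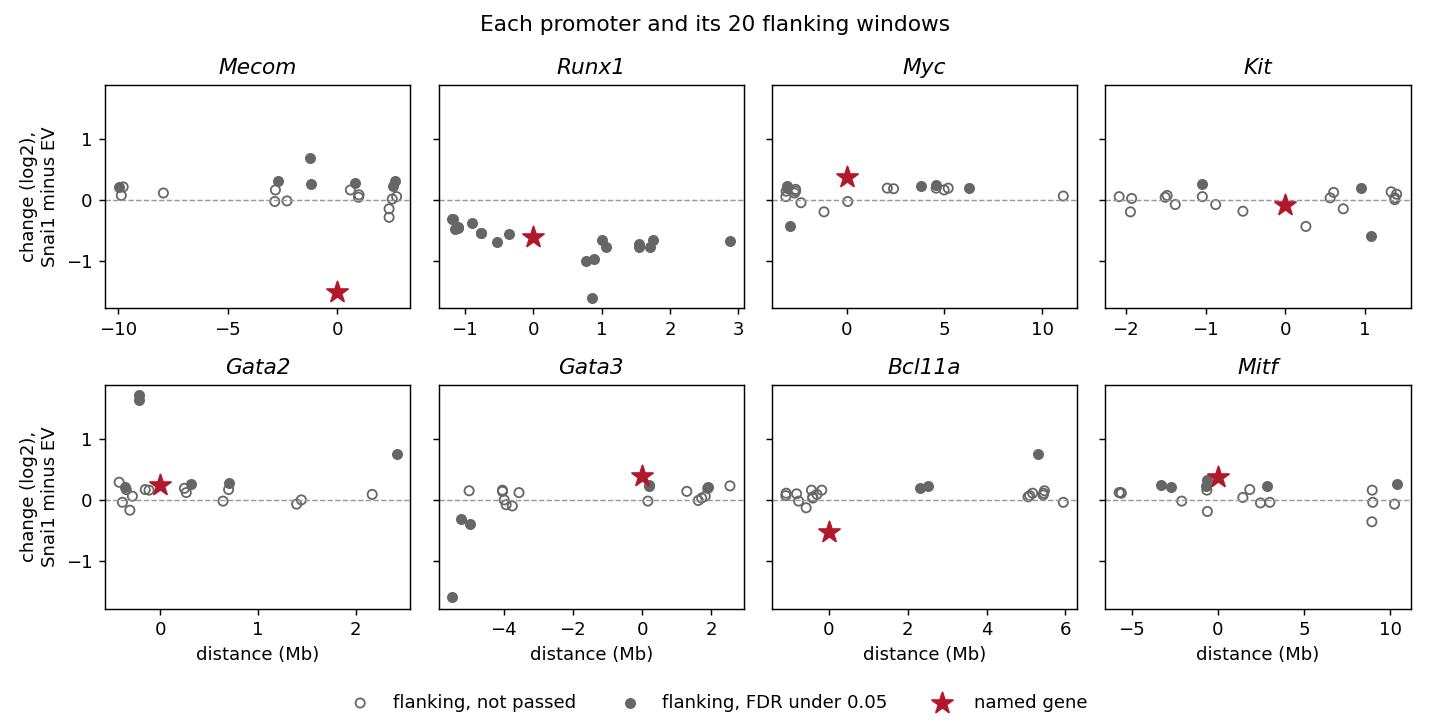
Change in log2 concentration, Snai1 minus EV (y axis), of each named promoter (red star) and its 20 flanking windows by distance along the chromosome in Mb (x axis); filled grey points passed FDR 0.05 and open ones did not. All 20 points around Runx1 are filled and below 0, whereas Mecom and Bcl11a lie below all of theirs and Myc, Gata3 and Mitf above.

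The windows most like each member over the 2 group values were found by distance in log2 units. Closest to Mecom was the interferon-induced gene Rsad2, with 6.81 in Snai1 and 8.21 in EV (distance 0.11). Closest to Runx1 was Iqcg (distance 0.07) and closest to Bcl11a was Ppp1r2 (0.03), a phosphatase inhibitor gene, both on chromosome 16. Closest to Myc was Sh3bgrl3 (0.03), to Mitf the adenylate cyclase gene Adcy7 (0.02) and to Gata3 the mitochondrial arginyl-tRNA synthetase gene Rars2 (0.01). The deubiquitinase gene Usp42 was closest to Kit (0.01), and the RNA helicase gene Dhx30 had the same values as Gata2. Within 0.05 there were 29 windows around Gata2 and 17 around Kit, but 0 around Mecom or Runx1. Likeness over 2 values says nothing of shared control.

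Genes that work with the 8 regulators were taken from lists. Over 9 lists, 102 of 138 genes had a window; 18 were higher and 9 lower at the authors' FDR of 0.05, which is 26.5% against 29.9% of all windows. Their median change was 0.07, against 0.08 for all. Set against the median of all windows and tested again, 6 were higher and 14 lower, as among all windows 741 were higher and 1416 lower, against 2015 and 1060 in the authors' deposited table. Less the flanking windows, 5 were higher and 9 lower. Lists were described by counts and medians, and no test of a list was run.

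Among other stem and progenitor transcription factors, 5 of 20 genes with a window were higher, 1 was lower and 14 did not pass (median 0.10; less the median of all windows, 2 higher and 2 lower). Tal1, which works in a complex with Gata2, had a level of 10.86 in Snai1 and 10.45 in EV (change 0.41, implied SE 0.08, FDR 7.28e-06), the largest rise of the list. Meis1, a homeobox cofactor of stem cells, rose by 0.26, and Etv6, an Ets family repressor, by 0.22. The fall was at Gfi1, a SNAG domain repressor like Snai1, with 8.46 in Snai1 and 9.26 in EV (change -0.80, implied SE 0.14, FDR 3.16e-07). With windows under a log2 concentration of 9 left out, 5 of the list were higher and 0 lower. Tal1 and Gfi1 also passed less their surroundings (0.30 and -0.81). Spi1 (0.02), Lmo2 (-0.02) and Fli1 (0.17) did not pass. Their windows lay 14423, 12384 and 1980 bp inside the genes and were not on a listed start. The Tal1 window lay 1385 bp inside the gene, on a listed start.

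Of the Runx1 family and partners, 2 of 7 were higher (median 0.05; less the median of all windows, 0 were higher). Runx3, a related factor of lymphoid and myeloid cells, had a change of 0.27 (FDR 0.00418). Cbfb, the subunit that stabilizes Runx factors on DNA, had a change of 0.22 (FDR 0.0032). Runx1 was lower while its partner gene Cbfb was higher on the authors' scale. On that scale less the surroundings, neither passed (0.06 and 0.09).

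In the Myc and Max network, 3 of 15 genes were higher, 0 lower and 12 did not pass in the authors' DiffBind table (median 0.12). They were Max (0.21), the obligate partner of Myc, Mxd3 (0.25), a repressor that competes for Max, and Mga (0.21, at a window inside the gene). Less the median of all windows, none of these 3 passed, and in the list 0 were higher and 1 was lower, Mycl (-0.14 before the median was taken off), a relative of Myc. At an unadjusted p under 0.05 the counts were 4 higher and 0 lower.

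Kit signalling held the widest range, from -0.88 to 0.73. Of 23 genes with a window, 5 were higher, 3 lower and 15 did not pass (median 0.02; less the median of all windows, 3 and 3). Lyn, a Src family kinase active after Kit, had a level of 11.42 in Snai1 and 10.69 in EV (change 0.73, FDR 1.44e-16), and its surroundings had a median of 0.53. Cblb, a ubiquitin ligase that limits receptor signalling, had a level of 11.39 in Snai1 and 12.27 in EV (change -0.88, FDR 1.28e-14), and lay on chromosome 16 among windows with a median of -0.47. Sh2b3, an adaptor that restrains cytokine signalling, had a change of -0.47 (FDR 4.29e-06) at a window inside the gene, with surroundings at 0.03. Dok2, another negative adaptor, had a change of 0.39 (FDR 2.63e-05), also inside the gene. Less their surroundings, Lyn did not pass (0.20, adjusted p 0.0947) and Cblb (-0.41), Sh2b3 (-0.50) and Dok2 (0.26) did.

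The other lists are given by their counts, beside 29.9% called of all windows. Of the GATA family and cofactors, 2 of 5 were higher, Tal1 and Trps1 (0.27), an atypical GATA repressor. Less the median of all windows, 1 was higher and 1 lower. All but Trps1 (Tal1, Zfpm1, Ldb1 and Lmo2) were already counted among the transcription factors above. Of 6 Mecom partners and targets, 0 passed in the authors' DiffBind table (0 at an unadjusted p under 0.05), with values from -0.05 to 0.10, among them Suv39h1 (0.05), a histone methyltransferase gene, and Smad3 (0.10). Of 10 Bcl11a partners, Mta1 (-0.33, FDR 0.00276), a subunit of the NuRD remodelling complex, was lower, as were its surroundings (median -0.34); less the median of all windows 0 were higher and 1 lower. Of 5 genes of the MiT/TFE family and mast cell targets, Tfeb, a relative of Mitf that drives lysosome genes, was lower (-0.40, FDR 5.85e-05). This was opposite in sign to the Mitf window, which covers only the most upstream of the listed Mitf starts. Tfe3, another relative, had a value of -0.11 (FDR 0.324). Less the median of all windows, 0 of these 5 were higher and 2 lower. Of 15 surface receptors, Itga2b (0.30) and Epor (0.34), the erythropoietin receptor gene, were higher, and Cd34 (-0.39) and Slamf1 (-0.80), a marker of stem cells, were lower; less the median of all windows, 1 was higher and 3 lower. Less its surroundings, Itga2b passed (0.30, adjusted p 7.59e-04) and Epor did not (0.26, adjusted p 0.129). Cd34 and Slamf1 lay on chromosome 1 among windows with medians of -0.22 and -0.26. Less these, Slamf1 passed (-0.54) and Cd34 did not (-0.17, adjusted p 0.118). The Slamf1 window had a low level, 7.35 in Snai1 and 8.15 in EV.

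**Figure D4:**
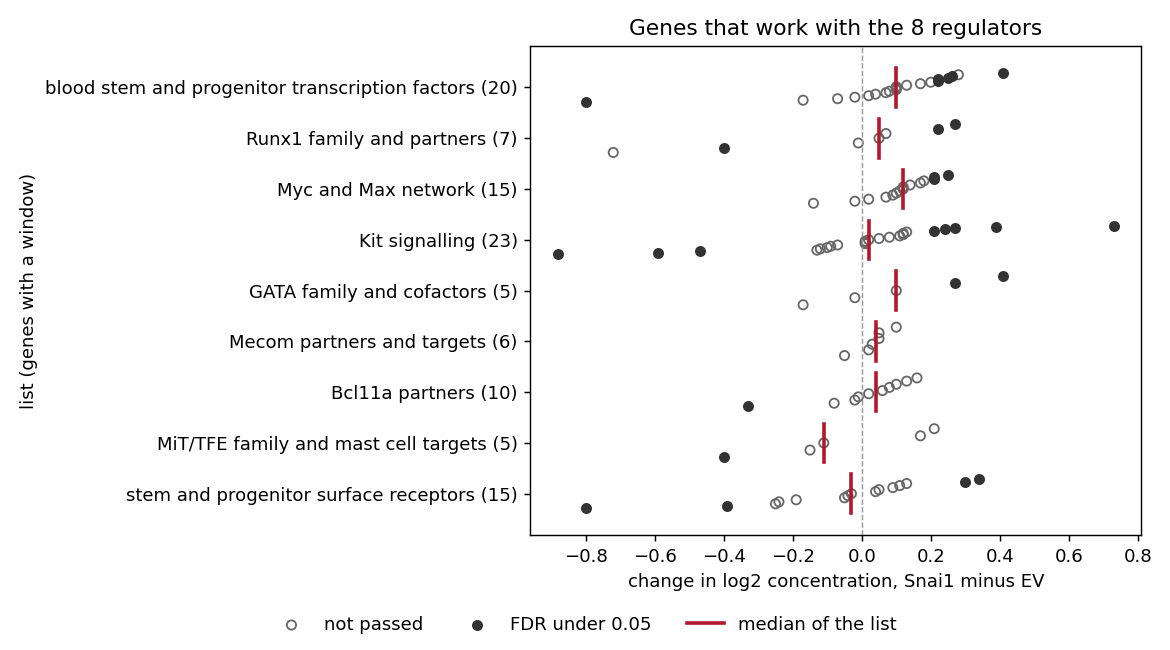
Change in log2 concentration, Snai1 minus EV (x axis), of the genes with a window in 9 lists (y axis, number of genes in brackets); filled points passed the authors' FDR of 0.05, open ones did not, and red bars are list medians. List medians lie between -0.11 and 0.12, and the widest range, -0.88 to 0.73, is that of Kit signalling.

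The labelled cell type was checked against its markers. Of 14 progenitor markers, 13 had a window (Erg had none). Their levels ran from 9.39 in Snai1 and 9.22 in EV at Fli1 to 12.44 and 12.22 at Lyl1, a partner of Gata2. Window widths were not matched here. At the authors' FDR of 0.05, 4 of the 13 markers rose and 2 fell, the latter being Runx1 and Cd34. Their median change was 0.02, and less the median of all windows 2 rose and 2 fell. Among all windows 29.9% passed. However, 3 of the markers (Kit, Gata2 and Runx1) belong to the 8 regulators, which were chosen by their changes. The rise at Gata2 and the fall at Runx1 are thus counted a second time here. So are the rises at Tal1, Lyl1 and Meis1 and the fall at Cd34, which belong to the lists above. Nothing is read from the share of markers called. Of 10 fibroblast markers, 2 had a window, Fap (0.38, FDR 0.00367, 9.53 in Snai1 and 9.15 in EV) and Pdgfrb (0.07, FDR 0.671, 10.21 in Snai1 and 10.14 in EV). Pdgfrb thus lay within the range of the progenitor markers. Of 10 T lymphoid markers, 0 had a window. A promoter without a window has no value here, so a missing window is not read as a closed promoter. Gata3, best known for T cell fate, was open in both groups. The window at the endogenous Snai1 gene had a level of 8.43 in Snai1 and 9.81 in EV (change -1.38). It is not a measure of the vector, and whether reads from the vector's Snai1 fell in this window was not tested. The amount of Snai1 protein is not in this table.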

How the data were processed

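ATAC-seq libraries of 3 groups with 3 libraries each (9 in all) are labelled; 2 groups, Snai1 and EV, are in the table analysed. The tools fastp, Bowtie2, Picard and DiffBind and the mm10 build are named per the submitters' processing notes; no source used here gives versions, the Tn5 shift, scaling or read depth, so the depth is unknown. The authors deposited, per promoter window, log2 concentrations (over both groups and for each), a log2 fold, a p-value and an FDR. The deposited fold is EV minus Snai1; changes here are Snai1 minus EV, from the group values, within 0.01 of it (Gata3 0.39, deposited as 0.38). Of 10274 rows, 3 exact repeats were dropped. Windows of 2001 bp were read as plus strand (start plus 1000) and those of 1101 bp as minus strand (start plus 100), and matched to RefSeq genes: 8957 at a 5' end, 1289 inside a gene, 25 with none. The table has 0 columns with values of single libraries, so no test across libraries was run.

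The implied SE took the median of the window's accessibility bin (20 bins) where the change was under 0.1 log2. Changes less a median were divided by this SE. The median was that of all windows or that of the 20 flanking ones (10 a side, the same gene left out). Two-sided normal p-values were adjusted by Benjamini-Hochberg over all windows with scipy 1.17.1. This step was run on simulated data whose p-values came from the same normal formula. That run cannot show whether the normal form holds for the authors' p-values. For lists, each gene's most accessible window was taken. Named were all member windows, the window nearest each on either side, the window most like each, and up to 4 called genes per list with the smallest FDR (with 0 called, 2 with the smallest p); others named were chosen after their values were seen, and 1 gene that the rule takes is not reported here. The members and lists were chosen with earlier results of these data known.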

Additional observations from a re-analysis of the deposited data

How the results depend on the processing

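Of the 8 regulator windows, 7 passed in the authors' deposited table; 6 passed at an FDR of 0.01, 6 less the median of all windows, 5 less the flanking windows, 6 with windows under a log2 concentration of 9 left out (which removes Mecom), and 7 with genes matched within 500 bp. Runx1 had 0.06 less its flanking windows, all of which were lower, against -0.61 as deposited. Gata2 did not pass at 0.01 or on either centred scale (0.17 and 0.08). The other 6 kept their sign, and those called stayed called, where tested. Over all windows 3075 passed, 1947 at 0.01, 2157 less the median of all windows and 1417 less the flanking windows. The genes of the 9 lists had 27 calls, and between 19 and 27 under the other settings except less the flanking windows, where there were 14. No paired analysis was possible because the table has no value per library, and for the same reason no library could be left out. Depth is unknown, so precision rests on the authors' p-values alone.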
